A study of Mus musculus with 6 samples.

Results

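The genes described here are 7 chemokine ligands that activated T cells can make, Ccl1, Ccl3, Ccl4, Ccl5, Ccl20, Xcl1 and Cxcl16, out of 19937 genes measured. They were chosen by name from knowledge of T cell biology, but with earlier results of these data known. Counts among them beside the share of all genes are therefore descriptions and not tests. Each was measured by 1 probe set of a mouse expression array. Chemokines are small secreted proteins that draw cells carrying the matching receptor. T cells stimulated through their antigen receptor release several of them, which recruit monocytes, dendritic cells and other lymphocytes to the site. CC chemokines have adjacent cysteines near the start of the mature protein, CXC chemokines have a residue between them, and Xcl1 belongs to the small class that lacks a pair of the conserved cysteines. Cxcl16 differs from the rest in being made as a membrane-anchored protein that proteases can release.

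The cells were CD4+ T cells of B6 mice, taken as naive cells from spleen. All 6 cultures shared a first activation with antibodies to CD3 and CD28 for 2 days and a night of rest. They were then incubated for 20 min with hamster antibodies and cross-linked with goat anti-hamster antibody for 8 h. The anti-CD3 group (4 arrays) received antibody to CD3, which triggers the T cell receptor complex. The anti-CD3 plus anti-ICOS group (2 arrays) received antibody to CD3 and to ICOS, a costimulatory receptor of the CD28 family. The labels speak of biological replicates but do not say whether these came from separate mice, so the p-values reflect array-to-array spread that may be partly technical. There was no unstimulated culture, and every difference below is between stimulated cells. The number of arrays limits the precision.

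Values are log2(intensity + 16), called the log2 level below. A difference is the anti-ICOS mean minus the anti-CD3 mean, given with its standard error (SE) or its 95% interval from limma, a linear model with a spread estimate shared across genes. P-values were adjusted by Benjamini-Hochberg across the 19937 genes, and a gene passed at an adjusted p under 0.05. Probe sets differ in brightness for reasons other than RNA amount, so levels are compared between arrays and not between genes.

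Anti-CD3 replicate 4 stood apart from its group across the array. Over all probe sets its Pearson correlation was 0.965 to 0.977 with anti-CD3 replicates 1 to 3 and 0.994 and 0.995 with the anti-ICOS arrays. The labels give no reason for this. The array was kept in the group its label gives, that label was not tested, and every value that includes the array rests on it. It is therefore shown separately, and each result is given with all 6 arrays, with this array left out, and with this array as the sole reference. In the last of these, the other anti-CD3 arrays serve to estimate the spread. Of the T cell markers, Cd3e read 12.72 to 12.81 in anti-CD3 replicates 1 to 3, 12.45 in replicate 4, and 12.40 and 12.43 with anti-ICOS. Cd4 read 12.32 to 12.45, then 12.05, then 11.95 and 12.0001, which is the split of arrays that Ccl3 and Xcl1 also show. Of 10 such markers 5 read lower on both anti-ICOS arrays than on every anti-CD3 array (14.7% of all genes), 3 were lower and 1 higher at an unadjusted p under 0.05 (5.56% and 6.24%), and 0 passed after adjustment. The higher one was Trat1, whose difference of 1.01 was the largest of the 10. It read 7.42 to 7.85 in replicates 1 to 3, 8.52 in replicate 4, and 9.01 and 8.76 with anti-ICOS. Cd2, Cd3d and Cd3g differed little, by 0.054, -0.033 and -0.010. Markers of other lymphocytes were also bright on every array, with Cd79b of B cells at 12.31 to 12.70 and Cd8b1 of CD8 T cells at 11.49 to 11.76.

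For 4 of the 7 genes RefSeq promoter sequence was at hand (Ccl1, Ccl3, Ccl20 and Xcl1). The 250 bases before the start of 3 of them are shown, because Ccl3 and Xcl1 were high on the same 3 arrays and Ccl20 was low on them. The build is GRCm38.p6, each is written 5′ to 3′ along its gene, and capitals mark matches to the motifs searched on both strands.
Ccl3 (chr11:83649379-83649628, minus strand): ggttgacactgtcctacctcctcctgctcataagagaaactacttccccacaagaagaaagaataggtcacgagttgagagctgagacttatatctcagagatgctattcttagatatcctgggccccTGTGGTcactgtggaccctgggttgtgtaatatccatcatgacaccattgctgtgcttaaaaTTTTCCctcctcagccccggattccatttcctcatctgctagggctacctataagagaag
Xcl1 (chr1:164935523-164935772, minus strand): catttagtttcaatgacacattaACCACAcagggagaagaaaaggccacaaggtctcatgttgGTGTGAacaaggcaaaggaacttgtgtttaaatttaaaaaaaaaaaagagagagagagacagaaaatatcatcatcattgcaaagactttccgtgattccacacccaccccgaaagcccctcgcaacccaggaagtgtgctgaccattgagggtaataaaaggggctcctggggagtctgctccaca
Ccl20 (chr1:83116516-83116765, plus strand): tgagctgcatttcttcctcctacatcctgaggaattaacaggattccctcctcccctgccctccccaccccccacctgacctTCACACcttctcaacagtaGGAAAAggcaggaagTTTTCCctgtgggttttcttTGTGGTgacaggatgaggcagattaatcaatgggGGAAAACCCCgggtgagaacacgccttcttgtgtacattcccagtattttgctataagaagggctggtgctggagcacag
The 6 motifs were NF-kB (its consensus), AP-1 (TGANTCA), the NFAT core (GGAAAA), the T-box core (TCACAC), RUNX (TGTGGT) and the TATA box (TATAAA). The Ccl3 window held 1 NFAT core, at -60 to -55 from the start, and 1 RUNX match at -122 to -117. The Xcl1 window held a T-box core at -187 to -182 and a RUNX match at -227 to -222. The Ccl20 window held 3 NFAT cores, a T-box core, a RUNX match and 1 NF-kB match at -80 to -71, which overlaps the last NFAT core. The Ccl1 window, not printed, held 2 NFAT cores. No window held the AP-1 or TATA letters. Of 32851 mouse promoter windows of this length, 20.4% held the NFAT core, 14.0% the RUNX letters, 12.3% the T-box core, 3.90% the NF-kB consensus, 6.75% the AP-1 letters and 12.4% the TATA letters. These matches are descriptions of sequence and were not tied to the expression values.

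The comparison asks what ligation of ICOS beside CD3 adds to chemokine expression. Cxcl16 rose 3.04-fold and was the 1 of 7 chemokines past the threshold. Ccl3 and Xcl1 had the next largest differences but did not pass, and in both the lone anti-CD3 replicate 4 read close to the anti-ICOS arrays. Ccl1 and Ccl5 had small positive differences, Ccl4 a smaller one, and Ccl20 a negative one. Thus 1 of 7 was higher, where 0.271% of all genes were, and 0 of 7 were lower, where 0% were. By limma at an unadjusted p under 0.05, 5 of 7 were higher and 0 lower, where 6.24% of all genes were higher and 5.56% lower. The median difference over the 7 was 0.28, against -0.031 over all genes. The anti-ICOS pair read higher than every anti-CD3 array in 6 of the 7, against 8.51% of all genes, and lower in 0 of the 7, against 14.7%.

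**Figure D1:**
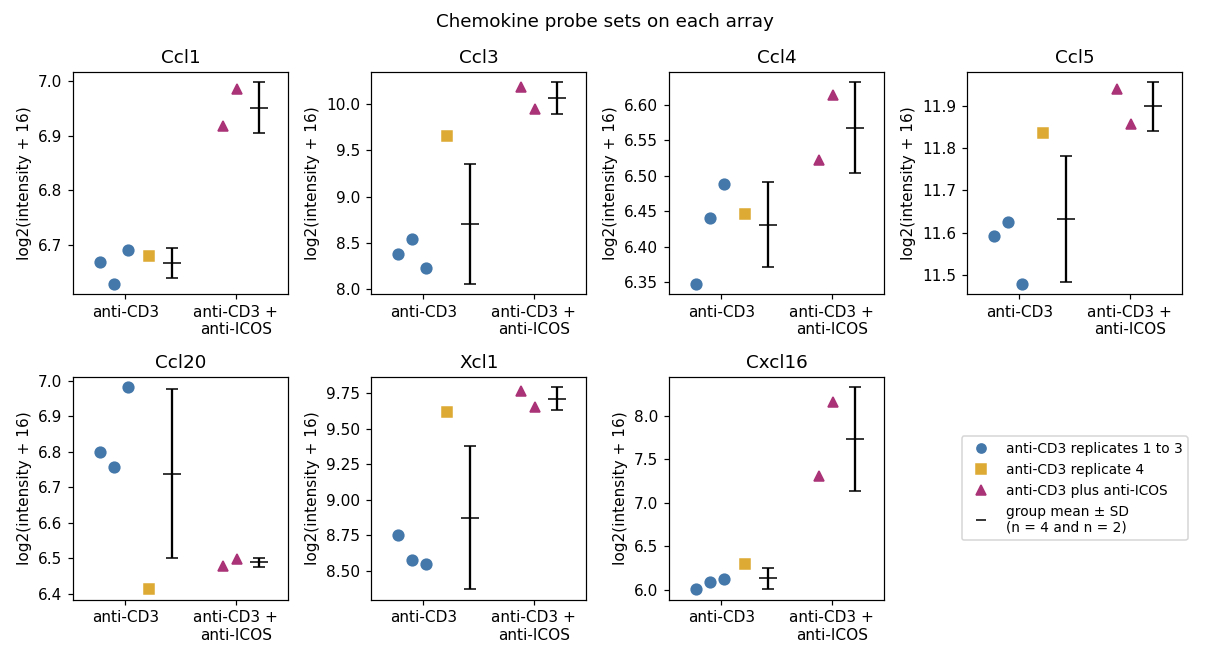
Log2 level (vertical axis, log2 of intensity plus 16, a separate scale per panel) of each chemokine on each array, with anti-CD3 replicates 1 to 3 as circles, anti-CD3 replicate 4 as a square, anti-CD3 plus anti-ICOS as triangles, and the group mean ± SD (n = 4 and n = 2) in black. Cxcl16 is high on both anti-ICOS arrays only, Ccl3 and Xcl1 are high on these and on anti-CD3 replicate 4, and Ccl20 is low on the same 3 arrays.

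Cxcl16 is the ligand of Cxcr6, and in its membrane-bound form can also serve as a scavenger receptor. Its log2 level was 6.001, 6.09, 6.12 and 6.30 in anti-CD3 replicates 1 to 4, and 7.31 and 8.15 with anti-ICOS. The groups did not overlap, and the pair of anti-ICOS arrays differed from each other by more than the 4 anti-CD3 arrays did. On the linear scale the deposited intensities were 48.1, 52.0, 53.7 and 62.8 against 143 and 269. The mean went from 6.13 ± 0.13 (SD, n = 4) to 7.73 ± 0.60 (SD, n = 2), a difference of 1.60 ± 0.22 (SE, 95% interval 1.10 to 2.11, limma adjusted p = 0.0494), or 3.04-fold. Unlike Ccl3 and Xcl1, replicate 4 lay only 0.23 above the mean of replicates 1 to 3. The difference was 1.66 without replicate 4 (adjusted p = 0.00129). Against replicate 4 alone it was 1.43 (95% interval 0.79 to 2.08), which did not pass (adjusted p = 0.190).

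The call of Cxcl16 was close to the threshold. It ended without anti-CD3 replicate 1, 2 or 3 (adjusted p = 0.222, 0.222 and 0.220) and without anti-ICOS replicate 2 (0.0744), and the difference itself lay between 1.18 and 2.03 with any 1 array left out. It also ended with quantile normalization (0.0507), with every probe set tested (0.0569) and with an offset of 64 (0.168). Markers of myeloid cells were also highest on the anti-ICOS arrays, but not on the same arrays in every case. The summed intensity of 11 monocyte and macrophage markers, as log2, was 9.92 to 10.003 in anti-CD3 replicates 1 to 3, 10.49 in replicate 4, and 10.53 and 11.10 with anti-ICOS. On the 2 anti-ICOS arrays both this sum and Cxcl16 were higher in replicate 2. In anti-CD3 replicate 4 the sum was close to that of anti-ICOS replicate 1, while Cxcl16 was 6.30 against 7.31. Of these markers 6 of 11 had an unadjusted p under 0.05 in the higher direction, against 6.24% of all genes, and 0 passed after adjustment. Their largest differences were 1.89 for Lyz2 and 1.34 for Adgre1, both also high in replicate 4 (8.53 and 8.10), followed by Clec4n at 0.55, Csf1r at 0.47, Itgam at 0.32 and Cd68 at 0.31. Of the other 5, Cd14 and C1qb differed by 0.25 and 0.25, and Fcgr1, C1qa and Mrc1 by -0.10, -0.064 and -0.030. Of 10 dendritic cell markers 4 were higher at an unadjusted p under 0.05 (6.24% of all genes), and 5 read higher on both anti-ICOS arrays than on every anti-CD3 array (8.51% of all genes). Flt3 was the 1 that passed, with a rise of 1.26 ± 0.087 (adjusted p = 0.00321, and at most 0.0393 with any 1 array left out), and Itgax differed by 0.87, Siglech by 0.53 and Zbtb46 by 0.34. Their sum, 14.15 to 14.34 against 14.25 and 14.38, rests on the bright probe sets of H2-Aa, H2-Ab1 and Cd74, which differed by 0.11, 0.11 and -0.066. The sum of 6 mast cell and basophil markers was 8.23 to 8.46 against 8.88 and 9.36. The part of these cells in the Cxcl16 difference was not tested. In RNA from a mixed culture, more cells of a type and more RNA per cell cannot be told apart.

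Ccl3, also known as MIP-1 alpha, signals through Ccr1 among other receptors and attracts monocytes and T cells. It read 8.38, 8.54 and 8.22 in anti-CD3 replicates 1 to 3, 9.66 in replicate 4, and 10.19 and 9.95 with anti-ICOS. Replicate 4 lay 1.28 above the mean of replicates 1 to 3, on the side of the anti-ICOS arrays, although both of these lay higher still. With all 6 arrays the difference was 1.37 ± 0.38 (95% interval 0.48 to 2.26, limma adjusted p = 0.394). Without replicate 4 it was 1.69 (interval 1.43 to 1.95, adjusted p = 9.88e-05), or 3.23-fold. Against replicate 4 alone it was 0.41 (interval 0.064 to 0.76, adjusted p = 0.824). The size of the Ccl3 difference thus ran from 0.41 to 1.69 with the choice of reference.

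Ccl4, or MIP-1 beta, is a close relative of Ccl3 and attracts T cells and monocytes. It read 6.35, 6.44, 6.49 and 6.45 in anti-CD3 replicates 1 to 4, and 6.52 and 6.61 with anti-ICOS. The anti-ICOS arrays were the highest, by a margin smaller than the range of the anti-CD3 arrays. The difference was 0.14 ± 0.074 (interval -0.038 to 0.31, adjusted p = 0.429), and without replicate 4 it was 0.14 (adjusted p = 0.161). The offset of 16 shrinks the differences of dim probe sets such as this one. The RefSeq spans of Ccl3 and Ccl4 overlap, so that signal shared between the neighbours is uncertain here.

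Xcl1, or lymphotactin, acts on Xcr1, which in the mouse is carried by dendritic cells that cross-present antigen. It read 8.75, 8.57 and 8.55 in anti-CD3 replicates 1 to 3, 9.62 in replicate 4, and 9.77 and 9.66 with anti-ICOS. Replicate 4 and the anti-ICOS arrays formed 1 narrow range, and replicates 1 to 3 another. The difference was 0.84 ± 0.29 (interval 0.15 to 1.53, limma adjusted p = 0.417) with all 6 arrays and 1.09 (interval 0.90 to 1.28, adjusted p = 0.000172) without replicate 4. Against replicate 4 alone it was 0.092, with an interval of -0.17 to 0.35.

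Ccl5, or RANTES, is stored by memory and effector T cells and acts through Ccr1 and Ccr3 among others. Its level was 11.59, 11.62 and 11.48 in anti-CD3 replicates 1 to 3, 11.84 in replicate 4, and 11.94 and 11.86 with anti-ICOS. Replicate 4 lay above replicates 1 to 3, and both anti-ICOS arrays just above it. The difference was 0.27 ± 0.11 (interval 0.016 to 0.52, limma adjusted p = 0.420), without replicate 4 it was 0.34 (adjusted p = 0.0123), and against replicate 4 alone 0.064 (interval -0.16 to 0.29).

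Ccl1, the ligand of Ccr8, is made by T helper cells of the Th2 type among others. It read 6.67, 6.63, 6.69 and 6.68 in anti-CD3 replicates 1 to 4, and 6.92 and 6.99 with anti-ICOS. Here replicate 4 lay among the other anti-CD3 arrays, 0.017 from their mean. The difference was 0.28 ± 0.066 (interval 0.13 to 0.44, adjusted p = 0.296), and it was of like size without replicate 4 (0.29, adjusted p = 0.0132) and against replicate 4 alone (0.27, interval 0.075 to 0.47, adjusted p = 0.661). Of the 7 differences that of Ccl1, 1.22-fold with all arrays, moved least between these 3 fits.

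Ccl20 attracts cells that carry Ccr6 and is made by Th17 cells and epithelium. It read 6.80, 6.76 and 6.98 in anti-CD3 replicates 1 to 3, 6.41 in replicate 4, and 6.48 and 6.50 with anti-ICOS. Replicate 4 was the lowest of the 6 arrays, and the groups overlapped. The difference was -0.25 ± 0.15 (interval -0.60 to 0.10, adjusted p = 0.440), it was -0.36 without replicate 4 (adjusted p = 0.0152), and against replicate 4 alone it changed sign, at 0.076 (interval -0.18 to 0.33).

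**Figure D2:**
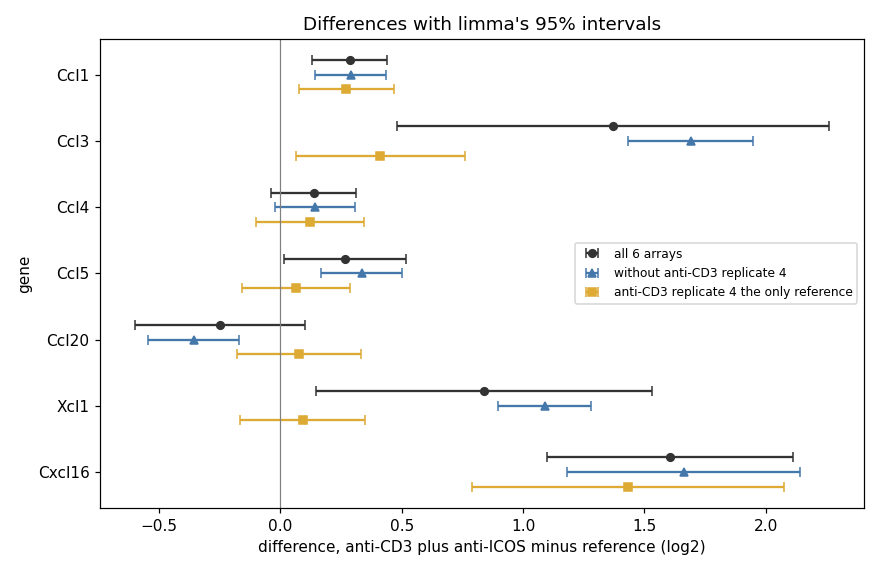
Difference in log2 level between anti-CD3 plus anti-ICOS and its reference (horizontal axis) for each chemokine, with limma's 95% intervals as bars, from all 6 arrays (circles), without anti-CD3 replicate 4 (triangles) and with that array as the only reference (squares). The intervals of Ccl1, Ccl3 and Cxcl16 lie above 0 in all 3, before adjustment over genes, while those of Xcl1 and Ccl5 include 0 against replicate 4 alone.

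Without replicate 4 the count was 5 of 7 higher, where 17.1% of all genes were higher, and 1 of 7 lower, where 12.7% were. The 5 were Ccl1, Ccl3, Ccl5, Xcl1 and Cxcl16, and the lower gene was Ccl20. With replicate 4 as the only reference 0 of 7 passed by limma, where 0.176% of all genes were higher, and 3 of 7 were higher at an unadjusted p under 0.05, where 2.94% of all genes were. The median difference over the 7 was 0.34 without replicate 4 and 0.12 against it alone, beside -0.041 and -0.013 over all genes. Replicate 4 itself read above all of replicates 1 to 3 for 4 of the 7 (Ccl3, Ccl5, Xcl1 and Cxcl16), where it did so for 34.5% of all genes, and below them for 1 (Ccl20). Since these comparisons share arrays, their likeness is not independent evidence.

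The genes nearest to each chemokine in pattern were sought among 10794 genes with a mean log2 level of at least 7. Likeness was the root mean square difference of the log2 values over the 6 arrays after each gene's mean was removed, so that 0 is an identical profile. The nearest to Ccl3 were Ifng, the gene of the Th1 cytokine interferon gamma, at 0.079, and Cxcr6, the receptor of Cxcl16, at 0.11. Ifng read 6.84, 7.05 and 6.81 in anti-CD3 replicates 1 to 3, 8.02 in replicate 4, and 8.76 and 8.37 with anti-ICOS. From lowest to highest, the 6 arrays stood in the same order for Ifng as for Ccl3. The nearest to Xcl1 were Mcts2 at 0.080 and Tasor2 at 0.082, and Xcl1 and Ccl3 were each other's nearest among the chemokines, at 0.29.

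The nearest to Cxcl16 were Tmem176b, a membrane protein gene expressed in dendritic cells and Th17 cells, at 0.11, and Tbc1d8 at 0.15. Tmem176b read 7.40, 7.41, 7.24 and 7.69 in anti-CD3 replicates 1 to 4, and 8.62 and 9.33 with anti-ICOS, so that like Cxcl16 it was higher in anti-ICOS replicate 2. For the chemokines that varied little, near profiles were easy to find. They were Atn1 (0.029) and Lima1 (0.036) for Ccl1, Acot11 (0.025) and Ptpn14 (0.026) for Ccl4, Ssbp1 (0.017) and Uso1 (0.017) for Ccl5, and Gm8096 (0.018) and 2610528A11Rik (0.025) for Ccl20. These distances describe 6 arrays and carry no test.

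**Figure D3:**
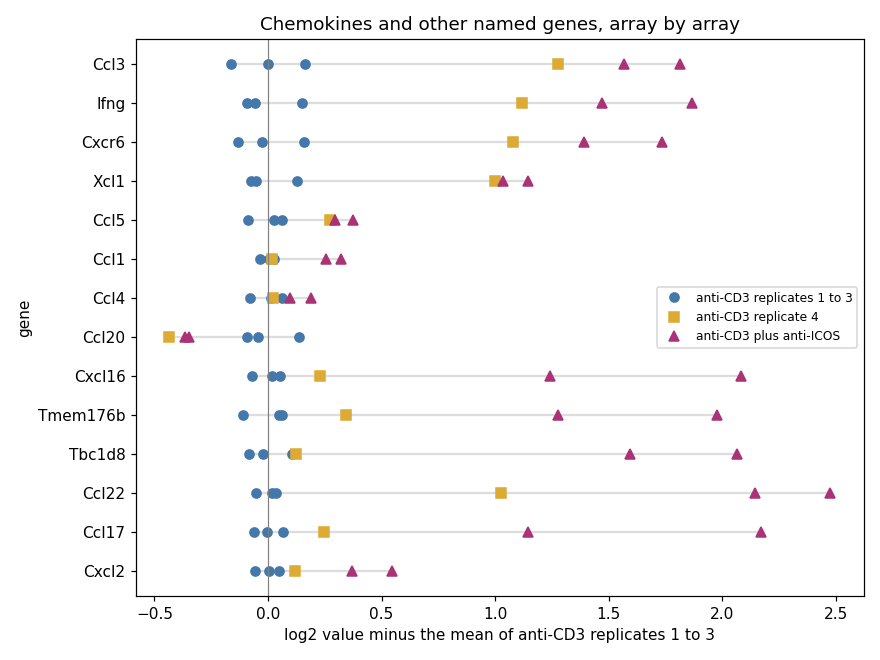
Log2 value on each array minus the mean of anti-CD3 replicates 1 to 3 (horizontal axis) for the 7 chemokines, genes of like profile (Ifng, Cxcr6, Tmem176b, Tbc1d8) and 3 other chemokine ligands, with circles for anti-CD3 replicates 1 to 3, squares for replicate 4 and triangles for anti-CD3 plus anti-ICOS. Replicate 4 sits 1.28 above 0 for Ccl3 and 0.23 above 0 for Cxcl16.

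Of the receptors that bind these ligands, 7 are described here. By limma 0 of 7 passed with all 6 arrays, with 2 higher and 2 lower at an unadjusted p under 0.05 (6.24% and 5.56% of all genes), and their median difference was 0.23. Cxcr6, the receptor of Cxcl16, read 7.13, 7.42, 7.24 and 8.34 in anti-CD3 replicates 1 to 4, and 8.997 and 8.65 with anti-ICOS. Ligand and receptor thus were both highest on the anti-ICOS arrays, while in replicate 4 Cxcr6 lay 1.08 above replicates 1 to 3. The Cxcr6 difference was 1.29 ± 0.33 (adjusted p = 0.344), 1.56 without replicate 4 (adjusted p = 0.000180) and 0.48 against it alone (interval 0.10 to 0.86).

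Ccr8, the receptor of Ccl1, read 6.54, 6.46, 6.35 and 6.67 in anti-CD3 replicates 1 to 4 against 7.04 and 6.74, a difference of 0.39 ± 0.12 (adjusted p = 0.414). Ccr6, the receptor of Ccl20, read 9.84, 9.82, 9.80 and 9.90 against 9.61 and 9.57. Its difference was -0.24 ± 0.068 (adjusted p = 0.399), and both anti-ICOS arrays lay below all anti-CD3 arrays. Against replicate 4 alone the Ccr6 difference was -0.30 (interval -0.49 to -0.11), so that replicate 4 was on the side of its own group. Ccr1 and Ccr3, which bind Ccl3 or Ccl5, differed by 0.29 ± 0.17 and 0.23 ± 0.12. Xcr1 read 5.67 to 5.93 on the 6 arrays and differed by -0.19 ± 0.071. Ackr2, a decoy receptor that clears inflammatory CC chemokines, differed by -0.098 ± 0.073. Without replicate 4 the count was 3 higher (Cxcr6, Ccr8 and Ccr1) and 1 lower (Ccr6), of 7, where 17.1% and 12.7% of all genes were.

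**Figure D4:**
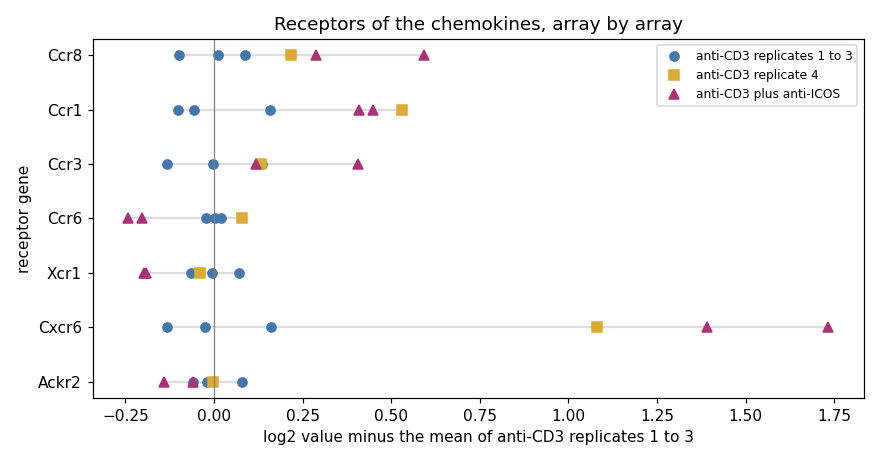
Log2 value of each receptor gene on each array minus the mean of anti-CD3 replicates 1 to 3 (horizontal axis), with circles for anti-CD3 replicates 1 to 3, squares for replicate 4 and triangles for anti-CD3 plus anti-ICOS. Cxcr6 is high on replicate 4 and higher on both anti-ICOS arrays, and Ccr6 is low on the anti-ICOS arrays only.

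The other chemokine ligands on the array did not move as a block. Of 29 measured, by limma 0 passed in either direction with all 6 arrays, with 8 higher and 1 lower at an unadjusted p under 0.05 (6.24% and 5.56% of all genes), and their median difference was -0.055. The 3 of smallest p were Ccl22, Ccl17 and Cxcl2. Ccl22 and Ccl17 are the ligands of Ccr4 and are made in quantity by dendritic cells. Ccl22 read 7.58, 7.60 and 7.51 in anti-CD3 replicates 1 to 3, 8.59 in replicate 4, and 10.04 and 9.70 with anti-ICOS. Its difference was 2.05 ± 0.31 (limma adjusted p = 0.0746), and it passed both without replicate 4 (2.31, adjusted p = 3.53e-05) and against replicate 4 alone (1.28, adjusted p = 0.0132). The SD of Ccl22 in the anti-CD3 group was 0.51 with replicate 4 and 0.046 without it. It did not pass without any other 1 array (adjusted p = 0.275 to 0.597).

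Ccl17 read 6.76, 6.84, 6.71 and 7.02 in anti-CD3 replicates 1 to 4, and 8.94 and 7.91 with anti-ICOS, a difference of 1.60 ± 0.26 (adjusted p = 0.0958), which passed without anti-CD3 replicate 4 (0.00283) or without anti-ICOS replicate 2 (0.0168). Cxcl2, a neutrophil attractant, read 5.51 to 5.69 on the anti-CD3 arrays against 6.12 and 5.94, a difference of 0.43 ± 0.086 (adjusted p = 0.185). In the fit without replicate 4 the share of higher ligands was near that of all genes, and the share of lower ligands was larger than that of all genes. Without replicate 4 the 29 ligands gave 6 higher and 7 lower, where 17.1% and 12.7% of all genes were. With it as the only reference 1 was higher, which was Ccl22.

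Of 18 measured genes for transcription factors, stores and proteases tied to these chemokines, Relb, an NF-kB subunit, was the 1 past the threshold. It read 8.23, 8.14, 8.10 and 8.33 in anti-CD3 replicates 1 to 4, and 8.90 and 8.85 with anti-ICOS, a rise of 0.67 ± 0.087 (adjusted p = 0.0455). Without replicate 4 the Relb difference was 0.72 (limma adjusted p = 0.000437). Against replicate 4 alone it was 0.54 and did not pass. Relb also did not pass without anti-CD3 replicate 1, 2 or 3 (adjusted p = 0.220, 0.214 and 0.128), or without either anti-ICOS array. Tbx21 and Eomes, T-box factors known to act on Ccl3, Ccl5 and Xcl1, were chosen for mention after their values were seen. Tbx21 differed by 0.054 ± 0.091 and Eomes by 0.59 ± 0.26, with Eomes at 8.12 to 8.50 in replicates 1 to 3, 9.16 in replicate 4, and 9.17 and 9.11 with anti-ICOS. Eomes thus had the same split of arrays as Xcl1. Adam10, a protease that releases Cxcl16 from the membrane, differed by 0.017 ± 0.11 and was also chosen after its values were seen. The list's median difference was 0.11, with 9 of 18 higher and 0 lower without replicate 4 (17.1% and 12.7% of all genes).

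Markers of cells that also make Ccl3, Ccl5 and Xcl1 differed between the arrays too. The summed intensity of 9 NK cell markers, some of which activated T cells also express, as log2, was 12.56 to 12.62 in anti-CD3 replicates 1 to 3, 12.93 in replicate 4, and 12.94 and 12.95 with anti-ICOS, the same split as for Xcl1. This sum rests on the bright probe sets of Nkg7 and Klrd1. Replicate 4 read above all of replicates 1 to 3 for 6 of the 9 markers (34.5% of all genes) and below them for 1, Gzma. Of these 9 markers 0 passed and 4 were higher at an unadjusted p under 0.05 by limma (6.24% of all genes). Ncr1, the defining receptor of NK cells, did not show the split of the sum. It read 5.60 to 5.86 in anti-CD3 replicates 1 to 3, 5.64 in replicate 4, and 6.34 and 6.54 with anti-ICOS. The sum of the 2 CD8 markers was 11.91 to 12.20 against 12.09 and 12.14. That of 6 B cell markers was 13.84 to 14.17 against 14.04 and 14.18, and that of 8 neutrophil markers 8.60 to 9.04 against 9.02 and 10.09. The part of these cells in the chemokine differences was not tested.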

How the data were processed

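Total RNA (1 ug) of 6 cultures was hybridised to 1-colour Affymetrix arrays, 1 per culture. Groups and replicate numbers come from the titles. The deposited table holds the authors' normalized probe set intensities on a linear scale; MAS5 is the tool named per the submitters' processing notes, while for background correction, probe summary and centring the sources used here name no method. Column medians were 109 to 114.

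Probe sets with 1 symbol in the platform annotation (21640 of 34760, with 1321 carrying several and 11799 unnamed here) were used, symbols were updated by gene ID, and a gene's brightest probe set was kept. Values were analysed as log2(intensity + 16), which shrinks differences of dim genes, with no filter. The fit across all genes used lmFit and eBayes of limma 3.58.1 (R 4.3.3), with two-sided p-values. For a single gene, a two-sided exact rank test cannot go below 0.133 here. The steps were tested on simulated data. The chemokines and lists were chosen with earlier results of these data known. Named are the chemokines, their receptors, the list genes past the threshold or else the 3 of smallest p, and the 2 nearest profiles per chemokine. The alternatives are those of the closing section. Plots used matplotlib 3.10.9 in Python 3.11.15.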

Additional observations from a re-analysis of the deposited data

Results flagged for a closer look

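Of 31 named genes, 2 had an anti-CD3 array far from the others of its group by Dixon's criterion, and both times it was replicate 4. Chance alone marks about 1 group in 20 for genes that vary independently. Replicate 4 departed across the array, and Mcts2 was picked for its likeness to Xcl1, so that share is no yardstick here. Ccl22 read 8.59 there, against 7.51 to 7.60 in replicates 1 to 3. Mcts2, the nearest profile to Xcl1, read 9.39 there, against 8.43 to 8.56. Xcl1 and Ccl3 themselves stayed under the criterion's limit, with a gap to the nearest array of 0.813 and 0.775 of the group's range.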

How the results depend on the processing

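With 1 array left out, genes higher numbered 16 to 3404 and genes lower 0 to 2526, with 0 to 5 chemokines higher and 0 to 1 lower. The largest counts were without anti-CD3 replicate 4, and no chemokine passed where the array left out was anti-ICOS replicate 2 or one of anti-CD3 replicates 1 to 3. With array quality weights 4543 genes were higher and 4870 lower, 6 chemokines higher and 1 lower. That run gave anti-CD3 replicate 4 the lowest weight, 0.150, against 0.382 to 4.53 for the other arrays. The replicate numbers are shared by the groups only for 1 and 2. The deviations of same-numbered arrays correlated at -0.039 and 0.10, so the number was not taken as pairing. With replicate block 3389 genes were higher and 3162 lower, 5 chemokines higher and 1 lower. In that run anti-CD3 replicates 3 and 4 had no same-numbered partner and did not enter the difference, so that it too left out replicate 4. With anti-CD3 replicate 4 the only reference 35 genes and 0 chemokines were higher, the median over the chemokines was 0.12, and Ccl20 turned to 0.076. An offset of 64 gave 28 genes and 0 chemokines higher, and a threshold of 0.1 gave 85 genes. Quantile normalization (adjusted p of Cxcl16 0.0507), testing every probe set (0.0569) and leaving out the dimmest 40% of genes, which removed Ccl4, Ccl20 and Cxcl16 (median over the rest 0.56), also gave 0 chemokines higher. Over its 16 alternatives Cxcl16 lay between 1.15 and 2.03 and passed in 8, with adjusted p from 0.000304 to 0.222. The 8 include the run without anti-CD3 replicate 4 and the runs with array quality weights and replicate block. These are not independent of each other, since replicate 4 counted little or not at all in them. Apart from Ccl20 against replicate 4 alone, no chemokine changed sign in any alternative run.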
